A study of Mus musculus with 6 samples.

Results

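Nuclei of the library TAFE3_oil, from mice with P301S tau and human APOE3, were compared with nuclei of the library FE3, from mice with human APOE3 and no tau transgene in the label. Nuclei were taken with at least 500 UMIs (unique molecular identifiers, each a count of 1 captured RNA molecule), at least 300 genes and at most 5% of UMIs from mitochondrial genes. This rule gave 11631 nuclei in TAFE3_oil and 10948 in FE3, 22579 of the 77421 nuclei that passed it in all 6 libraries. After the nuclei with the highest doublet scores were left out, 10549 nuclei of TAFE3_oil and 9989 of FE3 were used, 20538 in all.

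The series sequenced nuclei of frozen mouse brain, with 1 library in each of 6 groups of mice 9 months old. Both groups compared here are B6 mice with a floxed human APOE3 gene. FE3 is labelled APOE3 fl/fl with no treatment, and TAFE3_oil is labelled P301S APOE3/fl/fl Aldh1la1CreERT, an inducible Cre, with oil as treatment. The tau transgene, the Cre and the oil therefore differ together and cannot be told apart, and the promoter of the tau transgene and the number of mice behind each library are not given in the sources used here. Titles of the samples name hippocampus, while the protocol names the left hemisphere. The other libraries carry APOE4 in place of APOE3 (FE4 and TAFE4_oil) or tamoxifen in place of oil (TAFE3_tam and TAFE4_tam), and their values are given beside those of a few genes. Because each group is 1 library, no test between mice was possible, and every 95% interval below covers counting error only.

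Tau is a microtubule-binding protein of axons, and the P301S mutation, known from inherited frontotemporal dementia, makes it prone to aggregate. Mice that express mutant tau build up phosphorylated tau in neurons and with age lose tissue in the hippocampus and neighbouring cortex, while microglia and astrocytes take on reactive states. Apolipoprotein E carries lipids between brain cells, is made mainly by astrocytes in the healthy brain and is strongly induced in reactive microglia.

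FE3 held 39863569 UMIs and TAFE3_oil 39599801, with medians of 2398 and 2428 UMIs in a used nucleus. The mitochondrial limit left out 30.2% of barcodes in FE3 and 21.9% in TAFE3_oil. The libraries shared 67 barcodes, 0.45% of those in TAFE3_oil. Human MAPT and Cre were not found among the features of the matrices, so the tau genotype could not be read from its own transcript. Mouse Prnp, the prion protein gene, had higher CPM (UMIs scaled to 1000000 per class and library) in TAFE3_oil in all 15 classes compared, with log2 ratios from 0.45 to 1.08, and whether transgene reads enter it was not tested. Reads of human APOE and mouse Apoe may be split between these related genes, so their values are uncertain.

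Nuclei of all libraries were clustered together, and clusters were named by marker genes, so each class name below stands for nuclei like that type. Of 30 clusters, 7 were left unnamed. They held 1.64% of nuclei in FE3 and 9.22% in TAFE3_oil.

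Nuclei of hippocampal neurons made up 49.9% of FE3 and 15.6% of TAFE3_oil, a log2 ratio of -1.68. Granule neurons of the dentate gyrus were 2335 nuclei (23.4%) in FE3 and 733 (6.95%) in TAFE3_oil, a log2 ratio of -1.75 with a counting interval of -1.87 to -1.63. CA1 pyramidal neurons were 14.9% and 4.84%, and CA2 or CA3 neurons 11.6% and 3.75%. The 3 hippocampal classes were thus lower by similar amounts, and among hippocampal neurons alone their shares were close: granule neurons made up 46.8% and 44.7%, CA1 neurons 29.9% and 31.2%, and CA2 or CA3 neurons 23.3% and 24.1%, with intervals of all 3 ratios holding 0. With at most 1% mitochondrial UMIs all 3 intervals excluded 0, at log2 ratios of 0.32 for granule, 0.36 for CA1 and -0.53 for CA2 or CA3 neurons.

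Excitatory neurons with upper-layer cortical markers went the other way, at 141 nuclei (1.41%) in FE3 and 1869 (17.7%) in TAFE3_oil, a log2 ratio of 3.65. The size of this ratio depended on the clustering. It was 1.82 at resolution 0.5 (648 and 2420 nuclei) and 4.15 at resolution 2. Deep-layer excitatory neurons were 4.44% and 10.47%. The other excitatory classes outside the hippocampal ones were not higher. Etv1 or subicular neurons were 8.78% in FE3 and 3.48% in TAFE3_oil (-1.335, interval -1.515 to -1.158). Tshz2 neurons were 4.5% and 4.0% (-0.19, interval -0.38 to 0.007). Hippocampal neurons were 72.3% of excitatory neuron nuclei in FE3 and 30.4% in TAFE3_oil, so the libraries held different mixes of hippocampal and cortical tissue. A smaller hippocampus and a dissection that took more cortex cannot be told apart from these shares, nor can fewer cells and fewer recovered nuclei. Interneurons with Sst or Pvalb were 461 and 679 nuclei, and those with Vip or Lamp5 385 and 433.

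Among non-neuronal classes, microglia, the resident immune cells of the brain, were 172 nuclei (1.72%) in FE3 and 940 (8.91%) in TAFE3_oil, a log2 ratio of 2.37 with an interval of 2.14 to 2.62. Within non-neuronal nuclei, which are free of the mix of neurons, they were 8.43% and 32.0%. Their share of all nuclei was 3.75% in FE4, 5.79% in TAFE3_tam and 9.32% in TAFE4_oil, so both libraries without tau were below the 3 tau libraries given. Astrocytes were 5.30% in FE3 and 3.22% in TAFE3_oil, and oligodendrocytes 6.21% and 7.02%. Both turned with the mitochondrial limit. With at most 1% the log2 ratio of the astrocyte share was 0.75 in place of -0.72. That value rests on 12 nuclei of FE3 and 62 of TAFE3_oil, and its interval of -0.158 to 1.78 holds 0. With no limit the log2 ratio of the oligodendrocyte share was -0.55 in place of 0.18, with an interval of -0.675 to -0.431. Of microglial nuclei, 59.3% in FE3 and 33.99% in TAFE3_oil were over the mitochondrial limit. With no such limit the log2 ratio of their share was 1.83. With at least 1000 UMIs a nucleus it was 1.43. Nuclei with T cell markers were 0 in FE3, which at a limit of 3 nuclei allows a share of up to 0.030%, and 18 (0.171%) in TAFE3_oil. With no mitochondrial limit they were 5 and 37.

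**Figure D1:**
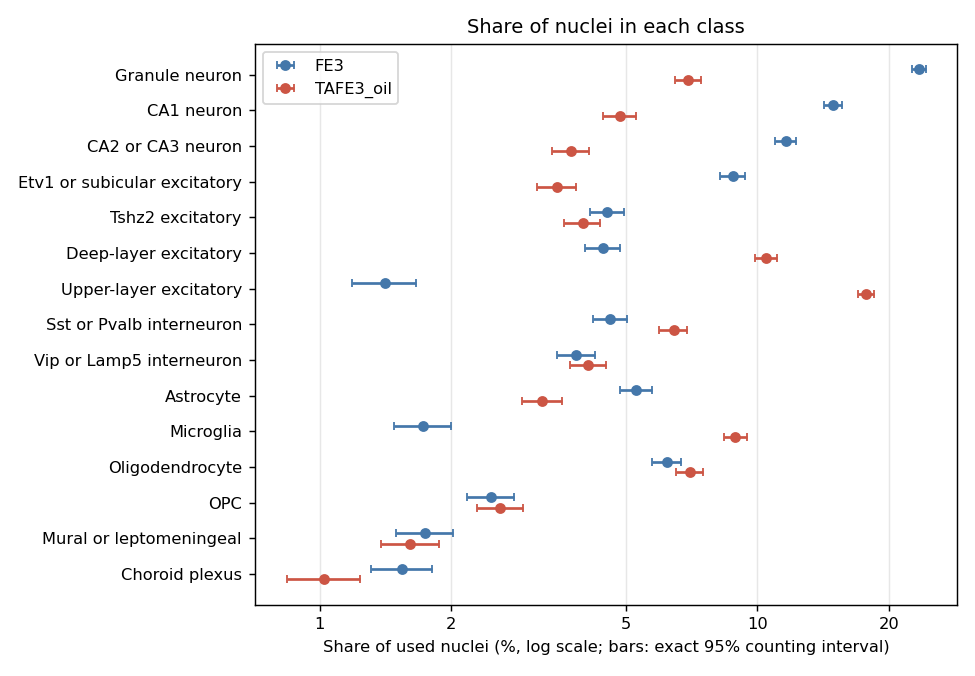
Share of used nuclei in each of 15 classes (horizontal log axis, percent) in FE3 (blue) and TAFE3_oil (red), with bars for the exact 95% counting interval. The 3 hippocampal classes (granule neurons 23.4% against 6.95%) and Etv1 or subicular neurons (8.78% against 3.48%) lie lower in TAFE3_oil. Upper-layer neurons (1.41% against 17.7%) and microglia (1.72% against 8.91%) lie higher.

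Within microglia, genes of the disease-associated state, of antigen presentation and of interferon signalling were higher in TAFE3_oil, and some purinergic receptor genes of resting microglia were lower. UMIs were summed over the nuclei of a class in each library, and a gene counted as measured with 50 or more UMIs in the pair of libraries and a mean of at least 5 CPM. TAFE3_oil held more microglial nuclei and UMIs, so a gene seen there alone passed at a lower CPM than one seen in FE3 alone. Genes with 0 UMIs in FE3 passed through TAFE3_oil only, and the list counts and medians of microglia carry this limit. Over all 5233 genes used in microglia, 8.06% were at least 2-fold higher and 5.22% at least 2-fold lower, with a median log2 ratio of 0.04. No count below is a test, and the lists were chosen with results of these data known.

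Of the 42 genes listed for disease-associated microglia, a state seen around plaques and degenerating neurons, 32 were measured, 28 of them at least 2-fold higher and 0 at least 2-fold lower, with a median log2 ratio of 2.19. Spp1, which encodes the secreted matrix protein osteopontin, had 0 UMIs in FE3 and 576 (542 CPM) in TAFE3_oil, a log2 ratio of at least 5.83 when FE3 is set to 3 UMIs. Across the other libraries Spp1 stood at 9.96 CPM in FE4, 587 in TAFE4_oil, 821 in TAFE4_tam and 640 in TAFE3_tam, so the 2 libraries without tau were low and the 4 with tau were high. Lyz2, a lysozyme gene of myeloid cells, had 12.7 CPM (4 UMIs) in FE3 and 480 CPM (510 UMIs) in TAFE3_oil, a log2 ratio of 5.24 with an interval of 3.87 to 7.12. Cst7, a cystatin that inhibits cathepsins, had 0 UMIs in FE3 and 67.7 CPM in TAFE3_oil.

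Human APOE, which is outside this list and served to check the labels, was also far higher. It had 1398 CPM (440 UMIs) in FE3 microglia and 16530 CPM (17577 UMIs) in TAFE3_oil, a log2 ratio of 3.56 with an interval of 3.43 to 3.70. The APOE level was 1719 CPM in FE4 microglia, 25920 in TAFE4_oil, 21170 in TAFE4_tam and 17640 in TAFE3_tam, again with both libraries without tau low. With each nucleus thinned to 1000 UMIs, 60% of FE3 microglia (57 of 95) had an APOE UMI, below the 64.3% of FE3 granule neurons, so the FE3 share is at background. In TAFE3_oil 97.1% of microglia (236 of 243) had one, against 77.7% of granule neurons. Unthinned, the microglial shares were 86.6% and 99.6%.

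The receptor complex that senses lipids and apolipoproteins moved less. Trem2, the receptor, was at 426 CPM in FE3 and 885 in TAFE3_oil (log2 ratio 1.06, interval 0.79 to 1.33), and Tyrobp, its signalling adaptor, at 140 and 288 CPM (1.04). The Trem2 ratio was 0.68 in nuclei with at most 2% of UMIs from a list of 16 neuronal genes and 0.64 with scrublet's own doublet threshold in FE3, and the Tyrobp ratio 0.40 and 0.53. With no mitochondrial limit the ratios were 0.90 and 1.13, so whether they pass 2-fold depends on the setting. Clec7a, a pattern receptor, had 1 UMI in FE3 and 60.2 CPM in TAFE3_oil (interval 1.71 to 9.57). Itgax, an integrin of activated myeloid cells, had 2 UMIs in FE3 and 87.5 CPM in TAFE3_oil (interval 1.89 to 6.85). Axl, a receptor for apoptotic cells, stood at 9.53 CPM (3 UMIs) in FE3 and 112 CPM in TAFE3_oil (interval 1.97 to 5.85), and Cd9, a tetraspanin, at 226 and 986 CPM (2.13). Lpl, the lipoprotein lipase gene, was at 28.6 CPM in FE3 and 151 in TAFE3_oil (2.40), and Csf1, a growth factor for microglia, at 19.1 and 123 CPM (2.69). Per nucleus, the share of UMIs in the disease-associated list had a median of 0.535% (quartiles 0.322% and 0.907%) in FE3 and 1.80% (1.34% and 2.32%) in TAFE3_oil, so the quartile ranges did not overlap.

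Lysosome genes, which encode the enzymes and membrane proteins of the degrading compartment, were higher by smaller amounts: 15 of 35 measured were at least 2-fold higher and 0 lower, with a median log2 ratio of 0.75. Ctsd, encoding the protease cathepsin D, stood at 1144 CPM in FE3 and 3432 in TAFE3_oil (1.59, interval 1.43 to 1.75). Npc2, a cholesterol carrier of the lysosome, was at 66.7 and 241 CPM (1.85), and Grn, the progranulin gene, at 152 and 345 CPM (1.18). Subunits of the proton pump were nearer to 0, with Atp6v0a1 at 210 CPM in both libraries and Atp6v1a at 82.6 and 94.0 CPM (0.19). Lipid transport genes had a median of 0.40, with 6 of 18 at least 2-fold higher and 1 lower. Abca1, the exporter that loads lipid onto apolipoproteins, was at 54.0 CPM in FE3 and 161 in TAFE3_oil (1.57), while Vldlr, an apolipoprotein receptor, was at 76.2 and 36.7 CPM (-1.06).

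Homeostatic genes were mixed. Of 26 measured, 1 was at least 2-fold higher and 4 at least 2-fold lower, and the median was -0.20, or -0.60 in nuclei with at most 2% neuronal RNA and -0.75 with scrublet's own doublet threshold. P2ry12, the ADP receptor that guides the processes of resting microglia, stood at 149 CPM (47 UMIs) in FE3 and 63.0 CPM (67 UMIs) in TAFE3_oil, a log2 ratio of -1.25 with an interval of -1.80 to -0.68. Its level was 347 CPM in FE4, 47.7 in TAFE4_oil, 111 in TAFE4_tam and 83.5 in TAFE3_tam, so all 4 tau libraries were below both libraries without tau. P2ry13, a related receptor, had a ratio of -1.08, and Selplg, the ligand of selectins, -1.08. Tmem119, a membrane protein of resident microglia, was at 130 and 75.2 CPM (-0.79). Other markers of identity stayed near 0: Cx3cr1, the fractalkine receptor, had -0.17 and Csf1r, the receptor on which microglia depend, -0.12. Mef2c, a transcription factor, was higher (172 and 361 CPM, 1.07).

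Signalling genes had a median of 0.97, with 10 of 21 at least 2-fold higher. Cd84, a self-binding receptor of immune cells, was at 156 CPM in FE3 and 663 in TAFE3_oil (2.09), and Irf8, a transcription factor of the lineage, at 216 and 545 CPM (1.33). Inpp5d, a lipid phosphatase, was at 397 and 469 CPM (0.24, interval -0.04 to 0.54), which counting error alone spans. Chemokine genes were measured for 7 of 28 listed, and 6 were at least 2-fold higher, with a median of 2.54. With a filter of 20 UMIs and 2 CPM, 17 were measured and the median was 1.18. Ccl12, an attractant of monocytes, had 2 UMIs in FE3 and 111 CPM in TAFE3_oil (interval 2.24 to 7.19), and Ccl4 had 0 UMIs and 74.3 CPM.

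Complement genes, whose products tag material for uptake, had a median of 1.16, with 6 of 9 at least 2-fold higher. C1qa was at 1334 CPM in FE3 and 2978 in TAFE3_oil (1.16, interval 1.01 to 1.31), C1qb at 718 and 1794 CPM (1.32) and C1qc at 845 and 1458 CPM (0.79). The C1qc ratio was -0.13 with scrublet's own doublet threshold in both libraries. These 3 genes encode the chains of the initiating complex C1q. Itgam, a chain of complement receptor 3, stood at 159 and 163 CPM (0.03).

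MHC class II genes, which present antigen to helper T cells, were measured for 7 of 12, and 6 were at least 2-fold higher, with a median of 2.85. Cd74, the invariant chain, had 15.9 CPM (5 UMIs) in FE3 and 338 CPM (359 UMIs) in TAFE3_oil (4.41, interval 3.17 to 6.04). H2-Ab1, H2-Eb1 and H2-Aa, chains of the presenting molecules, had 0 UMIs in FE3 and 111, 84.6 and 68.6 CPM in TAFE3_oil. Border macrophages also express such genes. Of their 8 markers, 6 (Mrc1, Cd163, F13a1, Lyve1, Ms4a7 and Cbr2) were at 0 in FE3 microglia and 3 (Pf4, F13a1 and Lyve1) in TAFE3_oil, and the markers summed to 162 and 188 CPM.

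MHC class I genes, which present peptides to cytotoxic T cells, had a median of 2.07, with 8 of 13 at least 2-fold higher. H2-D1 was at 149 CPM (47 UMIs) in FE3 and 1172 CPM (1246 UMIs) in TAFE3_oil (2.97, interval 2.55 to 3.42), and at 243 CPM in FE4, 1176 in TAFE4_oil, 1786 in TAFE4_tam and 1288 in TAFE3_tam. H2-K1 was at 98.5 and 787 CPM (3.00), and B2m, the shared light chain, at 50.8 and 294 CPM (2.53). The H2-Q and H2-T genes are near-identical copies, so their values are uncertain. Among interferon-response genes, 10 of 12 measured were at least 2-fold higher, with a median of 1.98, of 50 listed. Bst2, a membrane protein that tethers viruses, stood at 15.9 and 62.1 CPM (1.97). Irf9, a transcription factor of the pathway, was at 41.3 and 47.0 CPM (0.19).

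Because both groups are known targets of interferon, the 250 bases before the start of each gene (RefSeq, GRCm38.p6) were searched on both strands for the core of the interferon-stimulated response element, GAAA, any 2 bases and GAAA, which 978 of 32851 promoters (2.98%) held. It was found in 3 of 9 promoters of measured interferon-response genes (Stat2, Bst2, Slfn8) and in 3 of 12 of MHC class I genes (B2m, H2-T22, H2-T23). In the windows below, shown on the gene's strand, capitals mark the match, which reads TTTC, 2 bases and TTTC where it lies on the opposite strand. B2m lies at chr2:122147523-122147582 (+), Bst2 at chr8:71537568-71537627 (-), Slfn8 at chr11:83020824-83020883 (-), Stat2 at chr10:128270251-128270310 (+) and H2-T23 at chr17:36032791-36032850 (-).
B2m: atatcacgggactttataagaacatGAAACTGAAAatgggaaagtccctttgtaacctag
Bst2: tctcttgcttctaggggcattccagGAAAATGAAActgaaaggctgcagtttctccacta
Slfn8: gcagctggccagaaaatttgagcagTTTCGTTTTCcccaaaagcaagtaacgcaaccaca
Stat2: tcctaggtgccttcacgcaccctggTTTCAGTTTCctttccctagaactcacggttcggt
H2-T23: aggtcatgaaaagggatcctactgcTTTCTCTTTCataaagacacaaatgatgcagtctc
The genes that held the motif had log2 ratios from 0.28 (H2-T22) to 2.53 (B2m), so they did not stand together. A match describes letters only. The gamma-activated site TTCNNNGAA, a shorter pattern held by 7.02% of promoters, was found at Bst2 and Eif2ak2.

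**Figure D2:**
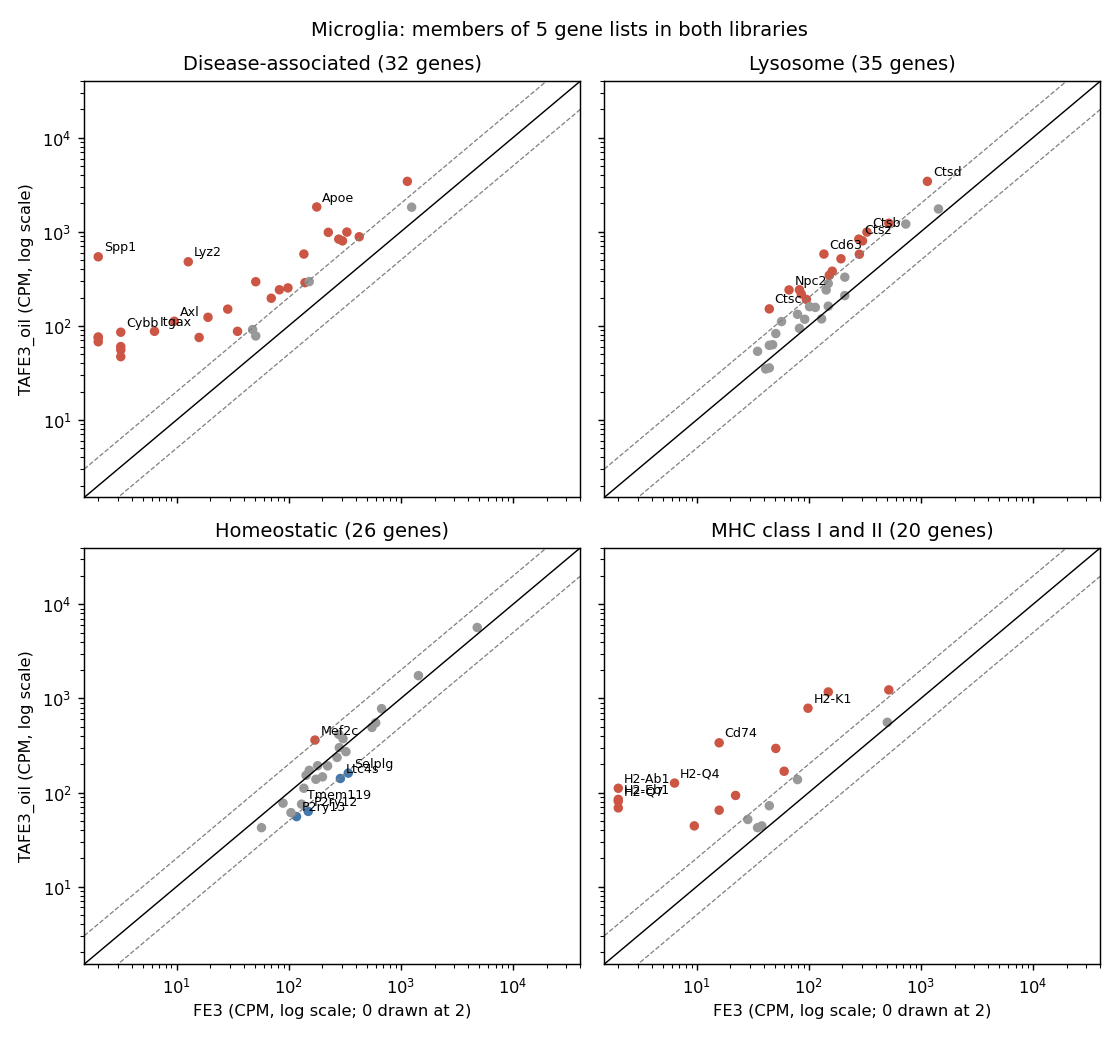
CPM of each measured member of 5 gene lists in microglia, FE3 on the horizontal and TAFE3_oil on the vertical log axis, with the solid line for equal levels and dashed lines for 2-fold (a level of 0 is drawn at 2 CPM). Red points are at least 2-fold higher and blue points at least 2-fold lower in TAFE3_oil: 28 of 32 disease-associated genes are red, against 1 of 26 homeostatic genes, of which 4 are blue.

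FE3 microglia were few and held more RNA of neurons, and these values move with the lists above. The 14 measured neuronal genes made up 2.95% of microglial UMIs in FE3 and 1.41% in TAFE3_oil, and 9 of them were at least 2-fold lower (median -1.18). Oligodendrocyte markers in microglia summed to 1042 CPM in FE3 and 2111 in TAFE3_oil, with 13 of 14 higher. In nuclei with at most 2% neuronal RNA (112 and 867), the medians were 1.70 for disease-associated, -0.60 for homeostatic and 1.72 for MHC class II genes. With scrublet's own doublet threshold in both libraries, the medians were 1.28 for disease-associated, -0.75 for homeostatic, 0.11 for signalling, 0.43 for complement and 0.88 for interferon-response genes. The medians kept their sign in these settings and were smaller, apart from the homeostatic one, which lay further below 0. The part of neuronal and oligodendrocyte RNA in the microglial differences was not tested.

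Astrocytes of TAFE3_oil had higher levels of genes that mark reactive astrocytes, while their transporter genes were near the level in FE3. Of 5666 genes used, 3.72% were at least 2-fold higher and 1.61% at least 2-fold lower, with a median of 0.01. Of 16 measured reactive astrocyte genes, 12 were at least 2-fold higher and 0 lower, with a median log2 ratio of 1.85. Members with few UMIs in FE3, such as Serpina3n below, passed the filter through TAFE3_oil. With nuclei thinned to 1000 UMIs the median was 1.26 over 10 genes.

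Gfap, the intermediate filament gene that defines reactive astrocytes, stood at 319 CPM (296 UMIs) in FE3 and 1858 CPM (1460 UMIs) in TAFE3_oil, a log2 ratio of 2.54 with an interval of 2.36 to 2.73. In the other libraries Gfap was at 355 CPM in FE4, 1466 in TAFE4_oil, 1554 in TAFE4_tam and 1655 in TAFE3_tam. The 4 tau libraries lay close together, above both libraries without tau. Thinned to 1000 UMIs, 22.9% of FE3 astrocytes and 54.7% of TAFE3_oil astrocytes had a Gfap UMI (unthinned 32.7% and 69.7%), against 3.15% and 9.37% of granule neurons, which should lack it. Vim, a second filament gene, was at 63.6 CPM in FE3 and 603 in TAFE3_oil (3.25, interval 2.85 to 3.66). It was at 71.3 CPM in FE4, 402 in TAFE4_oil, 290 in TAFE4_tam and 421 in TAFE3_tam. Serpina3n, a secreted protease inhibitor, had 2 UMIs (2.15 CPM) in FE3 and 84 UMIs (107 CPM) in TAFE3_oil, with an interval of 3.74 to 8.70.

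Other reactive genes spanned several functions. S100a6, a calcium-binding protein, was at 34.5 CPM in FE3 and 299 in TAFE3_oil (3.12), Osmr, the oncostatin M receptor, at 8.62 and 62.4 CPM (2.86), and C4b, a complement component, at 222 and 639 CPM (1.53). Cxcl5, a chemokine outside the list, was at 17.2 and 144 CPM (3.06). Stat3, a transcription factor of the reactive state, was at 56.0 and 73.8 CPM (0.40, interval -0.17 to 0.97), within counting error. Per nucleus, the list took a median of 0.264% of UMIs (quartiles 0.148% and 0.410%) in FE3 and 0.631% (0.356% and 1.05%) in TAFE3_oil.

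Genes lower in TAFE3_oil astrocytes included a target of a developmental signal, a growth factor and genes of the matrix. Hes5, a target of Notch, was at 437 CPM in FE3 and 172 in TAFE3_oil (-1.35, interval -1.64 to -1.06), and Vegfa, the vascular growth factor, at 374 and 179 CPM (-1.06). Hes5 was at 394 CPM in FE4, 329 in TAFE4_oil, 292 in TAFE4_tam and 298 in TAFE3_tam, so TAFE3_oil was the lowest of the 6. Slc27a1, a fatty acid transporter, was at 360 and 159 CPM (-1.18), and Bcan, which encodes the matrix proteoglycan brevican, at 1257 and 760 CPM (-0.73). Matrix genes as a list had a median of -0.67 over 9 measured, with 1 at least 2-fold higher (Sparc, 123 and 295 CPM, 1.27) and 1 lower (Adamts9, a protease, -1.20). The medians of their interval bounds were -0.946 and 0.079, and the list median changed sign in some other settings.

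Genes for transport and homeostasis had a median of 0.01 over 31 measured, with 1 past 2-fold. That gene was Kcnj10, the potassium channel that clears potassium from the extracellular space, at 48.5 and 123 CPM (1.35, interval 0.82 to 1.89). Slc1a2, the main glutamate transporter, was at 4981 CPM in FE3 and 6736 in TAFE3_oil (0.44), and Slc1a3, the second glutamate transporter, at 2238 and 1755 CPM (-0.35). The water channel gene Aqp4 was at 375 and 672 CPM (0.84).

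Human APOE was at 12000 CPM in FE3 astrocytes and 16490 in TAFE3_oil, at 12570 in FE4, 19430 in TAFE4_oil, 5277 in TAFE3_tam and 5238 in TAFE4_tam. It was lowest in the tamoxifen libraries, and the FE3 and TAFE3_oil levels differed by far less than those of microglia. Among 15 measured lipid transport genes the median was 0.19, with 3 at least 2-fold higher: Clu, the apolipoprotein clusterin (1347 and 2927 CPM, 1.12), Abca1 (98.0 and 214 CPM, 1.13) and Apod, another apolipoprotein (113 and 252 CPM, 1.16). Cholesterol synthesis genes had a median of -0.30 over 16, with 1 past 2-fold, Ebp, a sterol isomerase (17.2 and 50.9 CPM, 1.56, or -0.028 with no mitochondrial limit). Sqle, the squalene epoxidase gene, was at 125 and 63.6 CPM (-0.97).

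Some stress and defence genes were higher. Iron and oxidative defence genes had a median of 0.75 over 18, with 7 at least 2-fold higher, among them Trf, the transferrin gene (110 and 341 CPM, 1.63), and Prdx6, a peroxide-reducing enzyme (311 and 766 CPM, 1.30). Chaperone genes had a median of 0.49 over 25, with 5 at least 2-fold higher, led by Cryab, a small heat shock protein (45.2 and 219 CPM, 2.27). Interferon-response genes were measured for 6 of 50, and 4 were at least 2-fold higher, with a median of 1.93 (1.10 with at least 1000 UMIs a nucleus). Ifitm3, a membrane protein that blocks virus entry, was at 18.3 and 154 CPM (3.07). Microglial markers in astrocytes summed to 329 CPM in FE3 and 887 in TAFE3_oil, with 12 of 15 higher, and oligodendrocyte markers to 1375 and 2180 CPM. Their part in the astrocyte differences was not tested.

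Oligodendrocytes, the myelin-forming cells, differed in immune genes more than in myelin genes. Of 5014 genes used, 1.72% were at least 2-fold higher and 0.439% at least 2-fold lower, with a median of 0.00. Reactive oligodendrocyte genes had 9 of 20 at least 2-fold higher and 0 lower, with a median of 0.78. C4b stood at 69.7 CPM (43 UMIs) in FE3 and 790 CPM (688 UMIs) in TAFE3_oil, a log2 ratio of 3.50 with an interval of 3.06 to 3.98. C4b was at 103 CPM in FE4, 1107 in TAFE4_oil, 1342 in TAFE4_tam and 826 in TAFE3_tam, with both libraries without tau far below the others. Thinned to 1000 UMIs, 5.17% of FE3 and 43.8% of TAFE3_oil oligodendrocytes had a C4b UMI (unthinned 5.48% and 46.6%), against 0.303% and 4.27% of granule neurons.

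Further reactive genes were Fcho1, an endocytosis factor (19.4 and 122 CPM, 2.65), and Klk6, a secreted protease (19.4 and 71.2 CPM, 1.87). MHC class I genes were measured for 6 of 24, with 4 at least 2-fold higher and a median of 1.60 (0.63 with no mitochondrial limit). H2-D1 was at 61.5 CPM in FE3 and 319 in TAFE3_oil (2.37). In the complement list 4 of 5 were at least 2-fold higher (median 1.97), but C1qa, C1qb and C1qc are genes of microglia, and the 15 microglial markers in oligodendrocytes summed to 484 CPM in FE3 and 1245 in TAFE3_oil. Sgk1, a kinase that responds to glucocorticoids, was at 202 and 102 CPM (-0.99).

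Myelin genes had a median of -0.08, and 0 of 29 were past 2-fold. Mbp, which compacts the myelin sheath, was at 4211 CPM in FE3 and 3190 in TAFE3_oil (-0.40), and Fa2h, which makes hydroxylated myelin lipids, at 481 and 296 CPM (-0.70). Cryab was at 246 and 450 CPM (0.87). The list took a median of 2.46% of UMIs per nucleus in FE3 and 2.38% in TAFE3_oil.

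Oligodendrocyte precursors (OPC), of which 1.47% of 2657 genes were at least 2-fold higher and 1.09% lower, shared the C4b difference. C4b was at 29.5 CPM (10 UMIs) in FE3 and 282 CPM (110 UMIs) in TAFE3_oil (3.26, interval 2.33 to 4.36), and 3 of 4 measured complement genes were at least 2-fold higher, the others being C1qa and C1qb of microglia. Microglial markers in OPC summed to 298 CPM in FE3 and 973 in TAFE3_oil. Genes of proliferation and differentiation had a median of 0.06 over 16, with 1 past 2-fold each way. Top2a, a topoisomerase of dividing cells, was at 38.3 and 110 CPM (1.53), and Hes5 at 303 and 128 CPM (-1.24). Pdgfra, the receptor that defines the lineage, was at 1243 and 1514 CPM (0.28, or -0.046 with scrublet's own threshold).

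Measured synaptic genes of hippocampal neurons differed by less than 2-fold between the libraries. At least 2-fold higher were 0.76% of 10136 genes in granule neurons, 0.703% of 9531 in CA1 neurons and 0.628% of 9547 in CA2 or CA3 neurons, and at least 2-fold lower were 1.1%, 1.19% and 1.26%. Of 33 presynaptic and 38 postsynaptic genes measured in each class, 0 were past 2-fold. Presynaptic medians were -0.12 in granule, -0.18 in CA1 and -0.12 in CA2 or CA3 neurons, and postsynaptic medians -0.09, -0.16 and -0.14, beside medians over all genes of -0.06, -0.07 and -0.10. Slc17a7, the vesicular glutamate transporter, was at 377 and 255 CPM in granule neurons (-0.57, interval -0.72 to -0.42), at 431 and 288 CPM in CA1 neurons (-0.58) and at 406 and 299 CPM in CA2 or CA3 neurons (-0.44). Dlg4, the postsynaptic scaffold PSD-95, was at 122 and 75.6 CPM in CA1 neurons (-0.69) and at 99.9 and 61.7 CPM in CA2 or CA3 neurons (-0.69). In granule neurons Dlg4 was at 110 and 82.7 CPM (-0.42), so this gene was lower in all 3 classes.

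Genes that act on tau and microtubules had medians of 0.06 in granule and 0.09 in CA1 neurons over 40 measured. Mapt, the mouse tau gene, was at 216 CPM in FE3 and 322 in TAFE3_oil in granule neurons (0.58, interval 0.43 to 0.72), and at 208 and 306 CPM in CA1 neurons (0.55). Whether reads of the human tau transgene enter the mouse gene was not tested. In CA1 neurons 1 gene of the list was past 2-fold, Cdk5r1, which encodes the p35 activator of the tau kinase Cdk5, at 49.1 CPM (217 UMIs) in FE3 and 114 CPM (209 UMIs) in TAFE3_oil (1.21, interval 0.93 to 1.49). Cdk5r1 was at 54.4 CPM in FE4, 130 in TAFE4_oil, 91.5 in TAFE4_tam and 80.2 in TAFE3_tam, so all 4 tau libraries were above both without tau. Thinned to 1000 UMIs, 5.21% of FE3 and 9.66% of TAFE3_oil CA1 nuclei had a Cdk5r1 UMI, against 4.74% and 4.71% of oligodendrocytes. The FE3 share is thus near background. Cdk5 itself was at 131 and 89.2 CPM (-0.55), and Stmn1, a tubulin-binding protein, at 55.0 and 105 CPM (0.93).

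Ion channel genes of CA1 neurons had a median of -0.06 over 33, with 1 at least 2-fold lower, Cacna1g, a low-voltage calcium channel (132 and 62.6 CPM, -1.08, interval -1.38 to -0.79). Cacna1h, a channel of the same family, was at 127 and 77.3 CPM (-0.72), while Cacna1d, a long-lasting calcium channel, was at 117 and 211 CPM (0.84). Immediate early genes, which follow neuronal activity, had a median of 0.35 over 22, with Ptgs2, the inducible cyclooxygenase, past 2-fold at 8.604 and 17.4 CPM (1.02, interval 0.29 to 1.73). Fos, Arc and Npas4 were at 10.2 and 12.5, 77.4 and 88.7, and 32.8 and 31.0 CPM, with all 3 intervals holding 0.

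Interferon-response genes in CA1 neurons were measured for 8 of 50, with 4 at least 2-fold higher and a median of 1.00, which was 0.45 or less in 4 other settings. Those settings measured from 2 to 10 of the genes. Ifit1, an RNA-binding antiviral protein, was at 2.04 CPM (9 UMIs) in FE3 and 25.6 CPM (47 UMIs) in TAFE3_oil (3.65, interval 2.60 to 4.86). Microglial markers in CA1 neurons summed to 157 CPM in FE3 and 386 in TAFE3_oil, and their part was not tested. Crtac1, a secreted glycoprotein of the matrix, was at 144 and 50.6 CPM (-1.50). In granule neurons Hrk, a cell death activator, was at 33.5 and 61.4 CPM (0.87).

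Genes of cholesterol synthesis were lower in several neuron classes. In CA2 or CA3 neurons 6 of 23 measured were at least 2-fold lower and 0 higher, 21 were below 0, and the median was -0.70. Sqle was at 65.5 CPM (320 UMIs) in FE3 and 27.9 CPM (57 UMIs) in TAFE3_oil, a log2 ratio of -1.23 with an interval of -1.66 to -0.82. Fdps, which makes farnesyl diphosphate, was at 29.5 and 13.2 CPM (-1.16). Srebf2, the transcription factor that induces the pathway, was at 79.7 and 49.0 CPM (-0.70). Pmvk and Hsd17b7, a kinase and a reductase of the pathway, were the 2 above 0 (0.34 and 0.48), with intervals that hold 0.

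Deep-layer cortical neurons, with 1.67% of 9082 genes at least 2-fold higher and 1.79% lower, had all 21 measured genes of the pathway below 0 and 5 at least 2-fold lower, with a median of -0.79. Insig1, which restrains that factor, was at 59.6 and 23.3 CPM (-1.36), and Sqle at 125 CPM in FE3 and 54.0 in TAFE3_oil (-1.22, interval -1.55 to -0.89). Sqle was at 95.4 CPM in FE4, 55.7 in TAFE4_oil, 54.5 in TAFE4_tam and 72.6 in TAFE3_tam, all 4 tau libraries being below the others. The pathway took a median of 0.127% of UMIs per nucleus in FE3 and 0.0723% in TAFE3_oil. In CA2 or CA3 neurons these medians were 0.0704% and 0.0417%. The share of deep-layer nuclei was also higher in TAFE3_oil, and whether they come from the same cortical regions in both libraries was not tested.

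Granule neurons had a smaller shift of the pathway, with a median of -0.44 over 21 and 2 genes at least 2-fold lower, Mvd, a decarboxylase (10.7 and 3.83 CPM, -1.49), and Sqle (34.7 and 16.98 CPM, -1.03). CA1 neurons had a median of -0.27 over 20, with 0 past 2-fold, and Srebf2 at 90.1 and 49.0 CPM (-0.88).

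The sterol regulatory element TCACNCCAC was searched in the same promoters on both strands, and 346 of 32851 (1.05%) held it. Among measured genes of the pathway with a promoter in the table it was found at Hmgcs1 alone, 1 of 17 in CA2 or CA3 neurons and 1 of 15 in deep-layer neurons. Its window on the + strand at chr13:119690189-119690247 is shown with the match in capitals.
Hmgcs1: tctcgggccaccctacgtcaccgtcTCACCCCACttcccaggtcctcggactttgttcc
Hmgcs1, an early synthase of the pathway, had log2 ratios of -0.49 in CA2 or CA3 neurons and -0.54 in deep-layer neurons, both with intervals that hold 0.

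**Figure D3:**
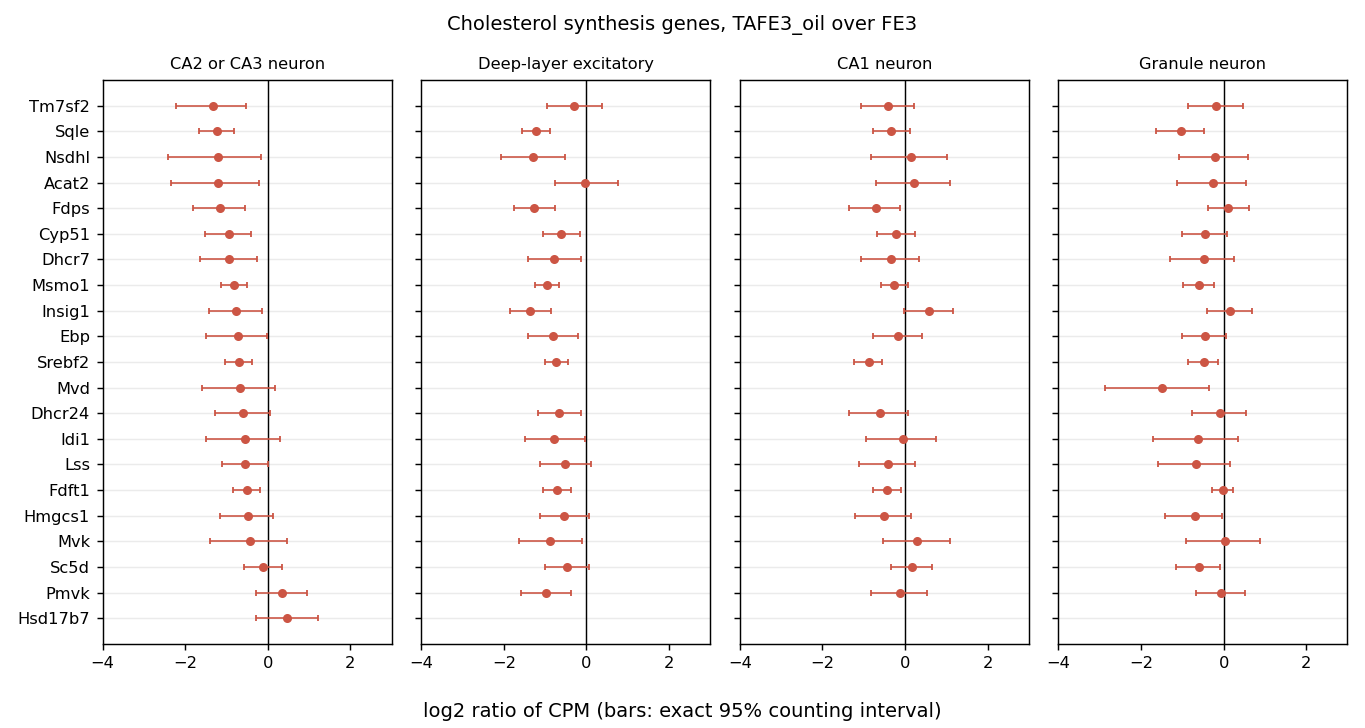
Log2 ratio of CPM, TAFE3_oil over FE3, of measured cholesterol synthesis genes in 4 neuron classes, with bars for the 95% counting interval and genes ordered by CA2 or CA3 neurons. All genes drawn for deep-layer neurons and all but Pmvk and Hsd17b7 of those drawn for CA2 or CA3 neurons lie left of 0, with wider spread around 0 in CA1 and granule neurons.

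Among immediate early genes of deep-layer neurons, 3 of 20 were at least 2-fold higher and the median was 0.30. They were Fos (6.32 and 17.7 CPM, 1.48), Dusp6, a phosphatase that limits kinase signals (3.61 and 14.3 CPM, 1.98), and Ier5, a stress-responsive factor (45.2 and 92.1 CPM, 1.03). The Fos and Dusp6 levels in FE3 rest on few UMIs. FE3 had 443 deep-layer nuclei against 1105 in TAFE3_oil, and these 2 genes passed the filter mainly through TAFE3_oil. Arc, a regulator of synaptic receptors, was at 33.4 and 60.2 CPM (0.85, interval 0.34 to 1.40).

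In interneurons with Vip or Lamp5, 0.861% of 7313 genes were at least 2-fold higher and 0.506% lower, and 4 of 17 measured neuropeptide and growth factor genes were at least 2-fold higher (median 0.26). Npy, a peptide that dampens excitation, was at 113 CPM (138 UMIs) in FE3 and 395 CPM (564 UMIs) in TAFE3_oil (1.80, interval 1.53 to 2.08). It was at 77.2 CPM in FE4, 238 in TAFE4_oil, 179 in TAFE4_tam and 137 in TAFE3_tam, so TAFE3_oil was highest and TAFE3_tam near FE3. With nuclei thinned to 1000 UMIs, 8.33% of FE3 and 15.7% of TAFE3_oil nuclei had an Npy UMI, against 3.45% and 12.5% of oligodendrocytes, so the share in a class that should lack the gene was also higher. Crh, the corticotropin-releasing hormone gene, was at 28.8 and 91.0 CPM (1.66), Tac2, a tachykinin, at 79.7 and 193 CPM (1.28) and Vip at 607 and 1324 CPM (1.13). Vip was at least 2-fold higher in 10 of 12 classes where it was measured (median 1.30, from 0.85 to 1.83). The mix of Vip and Lamp5 nuclei in this class was not split.

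**Figure D4:**
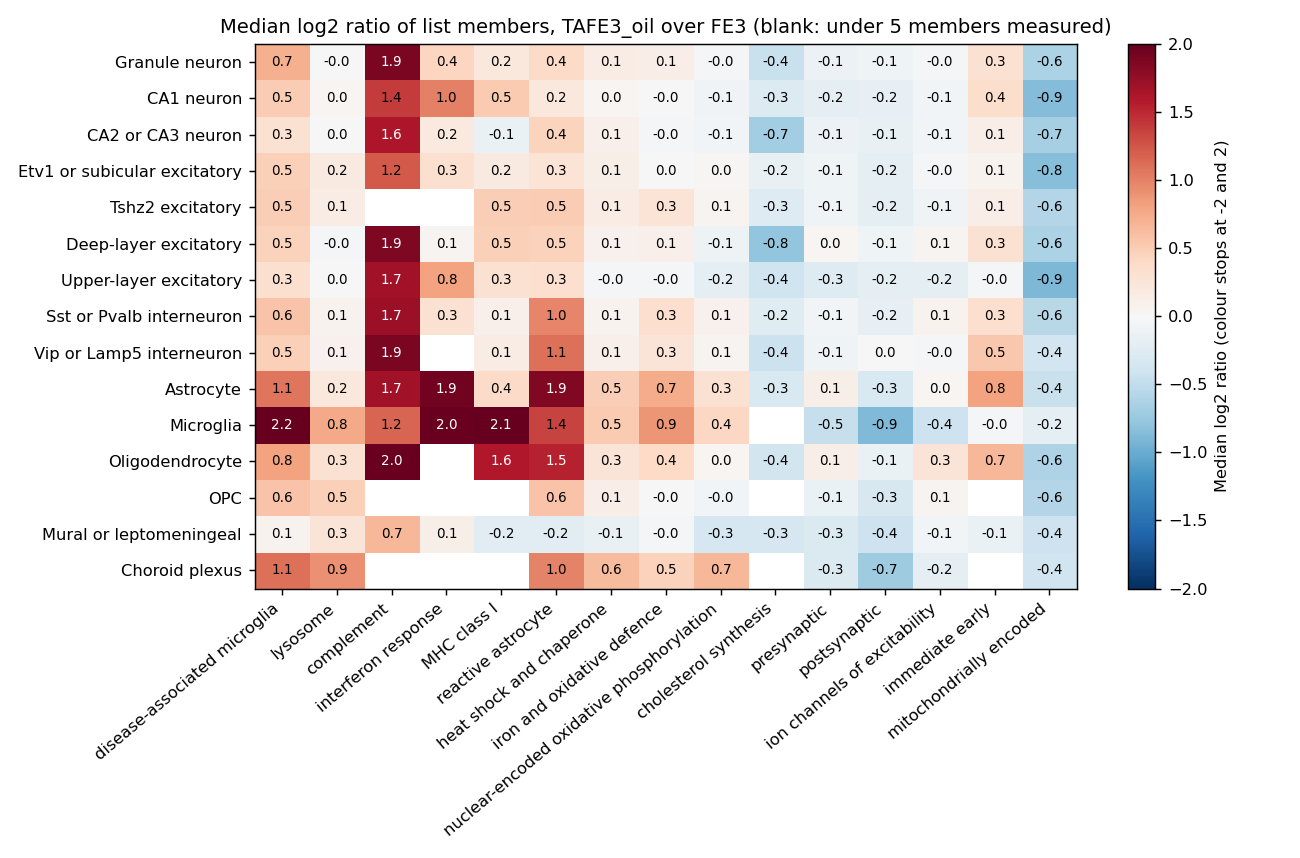
Median log2 ratio, TAFE3_oil over FE3, of the measured members of 15 gene lists (columns) in each class (rows), coloured from blue (lower) to red (higher) and left blank under 5 measured members. Disease-associated genes reach 2.2 and MHC class I genes 2.1 in microglia, synaptic lists stay within 0.2 of 0 in hippocampal neurons, and cholesterol synthesis is -0.8 in deep-layer neurons.

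Mural or leptomeningeal nuclei, from vessel walls and the coverings of the brain, had 1.19% of 4870 genes at least 2-fold higher and 4.44% at least 2-fold lower. Blood-brain barrier genes, which belong to endothelial cells, had 9 of 18 at least 2-fold lower and 0 higher, with a median of -1.14, which was -0.029 with coarser clustering (resolution 0.5). Cldn5, the tight junction claudin, was at 720 CPM in FE3 and 289 in TAFE3_oil (-1.32, or 0.41 with coarser clustering), Slc2a1, the glucose transporter, at 387 and 133 CPM (-1.54), and Vwf, the clotting factor made by endothelium, at 328 and 51.0 CPM (-2.69). All 9 endothelial markers were lower in this class, with sums of 2401 and 1055 CPM, and their part in the list was not tested. Endothelial nuclei formed a class of their own with 39 nuclei in FE3 and 125 in TAFE3_oil, too few in FE3 for ratios. Ptprb, an endothelial phosphatase, was at 438 and 72.8 CPM (-2.59), and at 49.3 CPM in FE4, 93.9 in TAFE4_oil, 225 in TAFE4_tam and 99.8 in TAFE3_tam, so FE3 stood above all others. Acta2, the actin of smooth muscle, was at 2011 and 621 CPM (-1.70), and Gkn3, a marker of arterial endothelium, at 166 and 16.98 CPM (-3.29). Genes higher in TAFE3_oil included Cyp26b1, which degrades retinoic acid (61.8 and 201 CPM, 1.71).

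Choroid plexus epithelium, which makes cerebrospinal fluid, had 154 nuclei in FE3 and 108 in TAFE3_oil, with 4.94% of 2469 genes at least 2-fold higher and 4.37% lower. Ttr, the thyroid hormone carrier that this tissue secretes, was at 15660 CPM in FE3 and 78390 in TAFE3_oil (2.32, interval 2.28 to 2.37), and at 19920 CPM in FE4, 85860 in TAFE3_tam and 36620 in TAFE4_tam. Nuclear genes of oxidative phosphorylation, the mitochondrial energy pathway, were all higher (52 of 52), with 16 past 2-fold and a median of 0.67. Cox4i1, a subunit of cytochrome oxidase, was at 326 and 825 CPM (1.34). Astrocyte markers in this class summed to 3677 CPM in FE3 and 1744 in TAFE3_oil, and microglial markers to 162 and 748 CPM, and their part was not tested.

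Some genes moved alike in nearly every class. C1qa was at least 2-fold higher in 15 of 15 classes where it was measured (median 1.87), Gfap in 14 of 15 and C4b (chr17:34728380-34743882, minus strand) in 12 of 13 (median 3.26). These are genes of glia. In granule neurons the 15 microglial markers summed to 200 CPM in FE3 and 573 in TAFE3_oil, a log2 ratio of 1.52, while astrocyte markers summed to 1030 and 853 CPM, and the part of free RNA was not tested. Tnrc6c, Cacna1d and Icam5 were not among the markers used to name the classes. Tnrc6c (chr11:117654289-117763439, plus strand), a scaffold of microRNA silencing, was at least 2-fold higher in 13 of 15 classes, with ratios from 0.77 in microglia to 1.56 in choroid plexus. Cacna1d (chr14:30039939-30491455, minus strand) was past 2-fold in 11 of 14 (median 1.26). Lower in most classes were C1ql2, a synaptic organiser of granule neurons, in 13 of 14 (median -1.79), and Icam5 (chr9:21032073-21039036, plus strand), an adhesion molecule of forebrain dendrites, in 8 of 15 (median -1.05). C1ql2 was a marker of granule neurons, whose share was lower in TAFE3_oil (23.4% and 6.95%). The part of their free RNA in the C1ql2 ratios was not tested.

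TAFE4_oil against FE4 asked the same question with APOE4, and shares no library with the comparison above. The filter for measured genes was applied anew to FE4 and TAFE4_oil, so the medians set side by side may run over different list members. Disease-associated genes of microglia had a median of 1.29 there against 2.19 with APOE3, MHC class II genes 1.46 against 2.85 and homeostatic genes -1.0 against -0.20. Reactive astrocyte genes had 1.55 against 1.85, reactive oligodendrocyte genes 1.60 against 0.78, and cholesterol synthesis genes of deep-layer neurons -0.56 against -0.79. The neuronal genes found in microglia had a median of 0.03 with APOE4 and -1.18 with APOE3. Signalling genes of microglia had -0.26 against 0.97, and barrier genes of mural nuclei 0.31 against -1.14, on opposite sides of 0. For both lists the APOE4 interval (the medians of the members' bounds) held 0, so a direction with APOE4 is not shown. Cacna1d in CA2 or CA3 neurons had -0.01 (118.6 and 117.6 CPM) against 1.14 (111 and 245 CPM). Differences between the 2 APOE backgrounds were not tested.

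**Figure D5:**
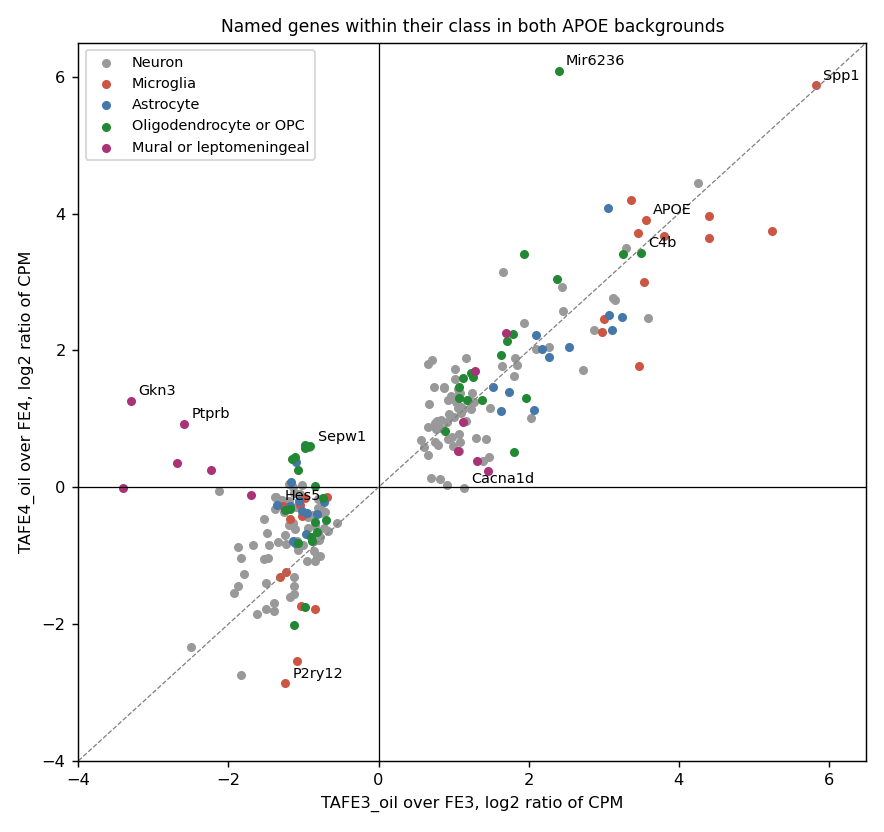
Log2 ratio of each named gene within its class, TAFE3_oil over FE3 (horizontal) and TAFE4_oil over FE4 (vertical), with a dashed line for equal ratios and colours for the kind of class. Microglial Spp1 (5.83 with APOE3) and oligodendrocyte C4b (3.50) lie near the line, while mural Ptprb (-2.59) and Gkn3 (-3.29) lie above 0 with APOE4.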

How the data were processed

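Nuclei were isolated from frozen brain over sucrose and made into droplet libraries, per the labels' protocols. The deposited matrices hold raw UMI counts per gene and barcode, written by Cell Ranger 3.1.0 per the file headers, and the submitters' processing notes also name mm10 and Seurat.

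Nuclei were filtered as in the report. Nuclei with the highest scrublet scores were left out at 0.8% per 1000 nuclei in each library, because scrublet's own threshold marked 1579 nuclei of FE3 and 1 of TAFE3_oil. All libraries were clustered together (scanpy 1.11.5, 2000 variable genes, 30 components, 15 neighbours, Leiden resolution 1) and clusters named from marker lists. Counts were summed per class and library for classes with at least 50 nuclei in both. Log2 ratios of CPM carry exact conditional binomial 95% intervals, shares exact binomial ones, and a count under 3 was set to 3. On simulated counts for microglia (5233 genes), 95.5% of the 200 changed genes lay inside their interval. The counts were Poisson draws with no spread between nuclei, mice or libraries. A share near 95% was therefore built in, and it checks the calculation only.

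The gene lists and the comparison were chosen with earlier results of these data known. Genes were named as members of the 36 lists or as the 12 highest and 12 lowest (6 in smaller classes) by the interval bound nearest 0, with at least 100 UMIs and 20 CPM. Alternatives included TMM factors from edgeR 4.0.16. Some list members enter the counts and medians but are not reported here by name.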

Additional observations from a re-analysis of the deposited data

Results flagged for a closer look

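Several results with APOE3 lay on the other side of 0 from TAFE4_oil against FE4, with counting intervals that exclude 0 in both. The difference between the backgrounds was not tested, as each group is 1 library. In mural or leptomeningeal nuclei Gkn3 had a log2 ratio of -3.29 with APOE3 and 1.27 with APOE4, Ptprb -2.59 and 0.93, and Cldn5 -1.32 and 1.79. In microglia C1qc had 0.79 and -0.37. In neurons Slc17a7 of CA2 or CA3 had -0.44 and 0.36, and Cacna1h of CA1 had -0.72 and 0.37. Pdgfra of OPC had 0.28 and -0.16. The share of oligodendrocytes had 0.18 and -0.77, and that of all non-neuronal nuclei 0.45 and -0.16.

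Nuclei with T cell markers, which no comparison used, numbered 18 in TAFE3_oil and 0 in FE3, and 37 and 5 with no mitochondrial limit.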

How the results depend on the processing

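Every value below lies outside the interval of the one reported or, for a number of genes, differs from it by over 1.5 times; the cause was not tested except that the filters on low counts change which genes are measured. Some list medians whose interval (the medians of the members' bounds) held 0 changed sign in some alternatives. They were those of homeostatic genes of microglia, of transport, lipid transport and matrix genes of astrocytes, of myelin genes, of the OPC list, of tau kinase genes of granule neurons and of ion channels of CA1 neurons. TMM scaling and totals without mitochondrial and ribosomal genes moved 0 medians and 0 numbers of genes. With at least 1000 UMIs a nucleus, log2 ratios of shares were -1.53 for hippocampal neurons, 1.04 for other excitatory neurons, 0.46 for interneurons, 1.43 for microglia, 0.71 for oligodendrocytes, 1.22 for microglia among non-neuronal nuclei, -0.75 for astrocytes among non-neuronal nuclei and 0.50 for oligodendrocytes among non-neuronal nuclei (reversed). List medians were -0.68 for free neuronal RNA of microglia, 1.10 for interferon response genes of astrocytes and 1.26 for reactive oligodendrocyte genes of oligodendrocytes, and genes past 2-fold numbered 259 in microglia. With at most 1% mitochondrial UMIs, log2 ratios of shares were -1.56 for hippocampal neurons, 1.31 for other excitatory neurons, 0.75 for astrocytes (reversed), 3.21 for oligodendrocytes, 1.52 for OPC, -0.62 for endothelial nuclei (reversed only because the 1 nucleus of FE3, beside 6 of TAFE3_oil, was set to 3; interval -2.08 to 6.49), 4.30 for upper-layer neurons, 1.84 for deep-layer neurons, 0.32 for granule neurons among hippocampal neurons, 0.36 for CA1 neurons among hippocampal neurons, -0.53 for CA2 or CA3 neurons among hippocampal neurons, 0.60 for microglia among non-neuronal nuclei, -0.82 for astrocytes among non-neuronal nuclei and 1.64 for oligodendrocytes among non-neuronal nuclei (reversed), list medians were 0.39 for interferon response genes of CA1 neurons, and genes past 2-fold numbered 86 in granule neurons and 101 in CA2 or CA3 neurons. With no mitochondrial limit, log2 ratios of shares were 1.83 for microglia, -0.55 for oligodendrocytes (reversed), -0.34 for OPC, 0.69 for endothelial nuclei, -0.88 for astrocytes among non-neuronal nuclei and -0.59 for oligodendrocytes among non-neuronal nuclei. List medians were 1.43 for chemokines and cytokines of microglia, 2.27 for MHC class II genes of microglia, -0.86 for free neuronal RNA of microglia, -0.19 for lipoprotein and lipid transport genes of astrocytes and 0.63 for MHC class I genes of oligodendrocytes, and genes past 2-fold numbered 512 in astrocytes. With scrublet's own doublet threshold, log2 ratios of shares were -1.78 for hippocampal neurons, 2.72 for microglia and 2.21 for microglia among non-neuronal nuclei. List medians were 1.28 for disease-associated genes of microglia, -0.75 for homeostatic genes of microglia, 0.11 for microglial signalling and migration genes of microglia, 1.12 for chemokines and cytokines of microglia, 0.43 for complement genes of microglia, 0.88 for interferon response genes of microglia, 1.67 for MHC class II genes of microglia and -0.24 for free neuronal RNA of microglia, and genes past 2-fold numbered 109 in OPC. With doublets kept, the log2 ratio of the share was 3.40 for upper-layer neurons. List medians were -0.60 for free neuronal RNA of microglia and 1.16 for interferon response genes of astrocytes. With clustering at resolution 0.5, log2 ratios of shares were 1.40 for other excitatory neurons and 1.82 for upper-layer neurons. List medians were 2.18 for MHC class II genes of microglia and -0.029 for blood-brain barrier and vessel activation genes of mural or leptomeningeal nuclei. Genes past 2-fold numbered 459 in upper-layer neurons and 75 in Etv1 or subicular neurons. With clustering at resolution 2, the log2 ratio of the share was 4.15 for upper-layer neurons. With genes of at least 20 UMIs and 2 CPM, list medians were 1.18 for chemokines and cytokines of microglia, 2.44 for MHC class II genes of microglia, 0.62 for MHC class I genes of oligodendrocytes, 1.06 for complement genes of oligodendrocytes and 0.45 for interferon response genes of CA1 neurons. Genes past 2-fold numbered 529 in granule neurons, 1195 in upper-layer neurons, 521 in oligodendrocytes, 518 in CA1 neurons, 803 in deep-layer neurons, 1532 in microglia, 512 in CA2 or CA3 neurons, 474 in Sst or Pvalb interneurons, 438 in Etv1 or subicular neurons, 479 in Tshz2 neurons, 425 in Vip or Lamp5 interneurons, 894 in astrocytes, 455 in OPC, 927 in mural or leptomeningeal nuclei and 808 in choroid plexus. With genes of at least 200 UMIs and 20 CPM, list medians were 1.13 for interferon response genes of astrocytes (1 gene measured), 0.045 for complement genes of OPC (1 gene) and 0.45 for interferon response genes of CA1 neurons (2 genes). Numbers of genes past 2-fold were then 36 in granule neurons, 188 in upper-layer neurons, 11 in oligodendrocytes, 37 in CA1 neurons, 74 in deep-layer neurons, 139 in microglia, 21 in CA2 or CA3 neurons, 17 in Sst or Pvalb interneurons, 18 in Etv1 or subicular neurons, 14 in Tshz2 neurons, 16 in Vip or Lamp5 interneurons, 54 in astrocytes, 7 in OPC, 39 in mural or leptomeningeal nuclei and 25 in choroid plexus. With nuclei thinned to 1000 UMIs, list medians were 0.73 for interferon response genes of microglia (1 gene measured), 2.19 for MHC class II genes of microglia (2 genes), 1.22 for lipoprotein and lipid transport genes of microglia (6 genes), 1.26 for reactive astrocyte genes of astrocytes (10 genes) and 0.29 for interferon response genes of CA1 neurons (3 genes). Numbers of genes past 2-fold were then 52 in oligodendrocytes, 203 in deep-layer neurons, 179 in microglia, 86 in Sst or Pvalb interneurons, 61 in Tshz2 neurons, 55 in Vip or Lamp5 interneurons, 123 in astrocytes, 43 in OPC, 36 in mural or leptomeningeal nuclei and 38 in choroid plexus. With at most 2% neuronal RNA (added after seeing the data), list medians were -0.60 for homeostatic genes of microglia, 1.72 for MHC class II genes of microglia and 2.69 for interferon response genes of astrocytes. With scrublet's own threshold in FE3 alone (added after seeing the data), the list median was 2.20 for MHC class II genes of microglia. Single genes that changed sign were C1qc in microglia and Pdgfra in OPC (-0.13 and -0.046 with scrublet's own threshold), Ebp in astrocytes (-0.028 with no mitochondrial limit) and Cldn5 in mural nuclei (0.41 with clustering at resolution 0.5). With at most 1% mitochondrial UMIs FE3 kept 6 microglia, so most values could not be had there. FE3 then kept 12 astrocytes, and the interval of the reversed astrocyte share (-0.158 to 1.78) holds 0. The value for interferon response genes of CA1 neurons in that setting rests on 2 genes. At resolution 0.5 no cluster was called endothelial (0 nuclei in both libraries), so that share has no value there. No paired analysis was possible because each group holds 1 library, and for the same reason no replicate could be left out. FE3 microglia were 172 nuclei with a median of 1134 UMIs, which limits their precision.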

Other observations

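Clusters without a name held 973 nuclei of TAFE3_oil and 164 of FE3, and 361 to 714 of each other library. The cluster led by Ifit1, Gm4951 and Rnf213, genes induced by interferon, held 1 nucleus of FE3 and 59 of TAFE3_oil, against 1 of FE4, 37 of TAFE4_oil, 77 of TAFE3_tam and 307 of TAFE4_tam. The cluster led by Hspa1a, a heat shock gene, Atf3, a stress-response factor, and Cdkn1a, an inhibitor of the cell cycle, held 0 of FE3 and 31 of TAFE3_oil, against 0 of FE4, 20 of TAFE3_tam, 42 of TAFE4_oil and 37 of TAFE4_tam. A cluster with both microglial and oligodendrocyte markers held 20 nuclei of FE3 and 97 of TAFE3_oil, and a cluster of low UMI counts and mixed markers 41 and 537. These numbers are values of single libraries, and the genes that lead each cluster also defined it.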
